A study of Mus musculus with 42 samples.

Results

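The genes of iron transport and storage followed here in 42 mouse libraries were Trf, Tfrc, Slc11a2, Fth1, Ftl1, Slc40a1, Cp, Aco1 and Ireb2. They were chosen by symbol, as 9 of the 20661 genes listed in each of 3 tables of RPKM (reads scaled to the length of the coding sequence in kilobases and to the depth of the library), by a rule that uses no measured value but was set with earlier results of these data known. All 9 passed the filter on low values in each table.

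The first table held ribosome-bound RNA of mature oligodendrocytes, the cells that make myelin in brain and spinal cord, taken by translating ribosome affinity purification (TRAP) from frontal cortex (n = 7), subcortical white matter (n = 6), cerebellum (n = 6) and spinal cord (n = 5). The second held whole frontal cortex of rTg4510 mice, 3 libraries negative and 3 positive for a transgene that expresses mutant human tau in forebrain neurons, all with 8mo in their titles. The third held whole prefrontal cortex by miR-142 genotype, with 4 wild-type, 4 heterozygous and 4 null libraries. The strain, the age of the other animals, the driver of the ribosome tag and the origin of the miR-142 null allele are not given in the sources used here. The labels do not state whether each library is its own animal, so p-values reflect only how far these libraries spread, which may be technical.

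Iron circulates bound to transferrin (Trf), enters cells when transferrin binds its receptor (Tfrc), and leaves the endosome through the divalent metal transporter Slc11a2. Inside the cell it is stored in ferritin, a shell built of heavy (Fth1) and light (Ftl1) chains, and it leaves through ferroportin (Slc40a1) with the help of the ferroxidase ceruloplasmin (Cp). The iron regulatory proteins, Aco1 (IRP1) and Ireb2 (IRP2), bind a hairpin called the iron-responsive element (IRE) when iron is low, which blocks translation of messages that carry it in the 5′ UTR and stabilises the Tfrc message, which carries it in the 3′ UTR. Oligodendrocytes are known as the iron-rich cells of the brain and as a main source of brain transferrin message.

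The hairpins are shown because they divide the genes by mode of control. The level of the Tfrc message can move with its mode. Levels of ribosome-bound RNA may also move where translation is blocked through the 5′ UTR. Levels alone do not tell which control acted, and control by iron was not tested. They were searched in GENCODE vM21 transcripts (GRCm38) as a bulged C, a stem of 5 paired bases with G-T pairs allowed, and the loop CAGTGN, on the transcript strand only. Of the 9 genes, 3 held the pattern in the 5′ UTR, against 25 of 19302 genes (0.13%), and 1 held it in the 3′ UTR, against 122 of 19379 genes (0.63%). Capitals mark the loop.
Fth1, 5′ UTR, chr19:9982733-9982759, plus strand: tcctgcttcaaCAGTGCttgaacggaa
Ftl1, 5′ UTR, chr7:45459780-45459806, minus strand: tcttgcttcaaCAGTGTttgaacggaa
Slc40a1, 5′ UTR, chr1:45925466-45925492, minus strand: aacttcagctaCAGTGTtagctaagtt
Tfrc, 3′ UTR, chr16:32631220-32631246, plus strand: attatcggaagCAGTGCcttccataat
Tfrc, 3′ UTR, chr16:32631599-32631625, plus strand: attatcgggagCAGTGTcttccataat
Tfrc, 3′ UTR, chr16:32631664-32631690, plus strand: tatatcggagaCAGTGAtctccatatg
Tfrc, 3′ UTR, chr16:32631711-32631737, plus strand: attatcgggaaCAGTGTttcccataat
Tfrc held 4 such elements and each of the other 3 genes held 1. The pattern is a description of these letters, and where it was not found nothing follows about the gene's control. The other 5 genes lie at chr9:103208876-103230286 (Trf), chr15:100387898-100424209 (Slc11a2), chr3:19956933-20009750 (Cp), chr4:40143265-40199009 (Aco1) and chr9:54862658-54912534 (Ireb2).

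The microRNA of the third table is shown with its seed, bases 2 to 8, in capitals, as RefSeq lists it on GRCm38.p6.
miR-142a-3p, chr11:87756903-87756925, plus strand: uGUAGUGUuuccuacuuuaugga
The match to that seed, ACACTAC, was searched on the transcript strand of the 3′ UTRs. It was found in 0 of the 9 genes and in 1275 of 19379 genes in all (6.58%), which says only that these letters are not in the windows searched.

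Depth was 3.26 to 36.79 M (mega) reads in the TRAP libraries, 13.87 to 27.02 in the rTg4510 table and 22.78 to 31.8 in the miR-142 table. Spinal cord replicates 4 and 7 stood apart, with mean correlations of 0.797 and 0.796 to the rest of their group, and were its shallowest at 8.54 and 3.26 M reads. The labelled cell type was checked on a list of 15 myelin genes, whose summed level was 7409 to 14948 RPKM in cortex and 33388 to 66508 in spinal cord. Neuron markers summed to 3905 to 12061 RPKM across all TRAP libraries, and astrocyte markers to 520 to 8965. Both are RNA of other cells in the purified fraction. In such bulk samples, fewer cells of a type and less RNA per cell cannot be told apart.

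Across the 4 regions, 4 of the 9 iron genes differed by limma's moderated F test: Fth1 (adjusted p = 4.19e-06), Trf (1.73e-05), Ftl1 (0.000226) and Ireb2 (0.0331). Of all 13982 genes tested, 47.1% did, so a count of 4 in 9 is close to the background. Slc40a1 (0.063), Tfrc (0.0789), Slc11a2 (0.162), Cp (0.399) and Aco1 (0.747) did not pass. The call on Ireb2 was lost in 10 of the alternatives tried, while calls were gained on Slc40a1 in 10, on Tfrc in 2 and on Cp in 1.

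**Figure D1:**
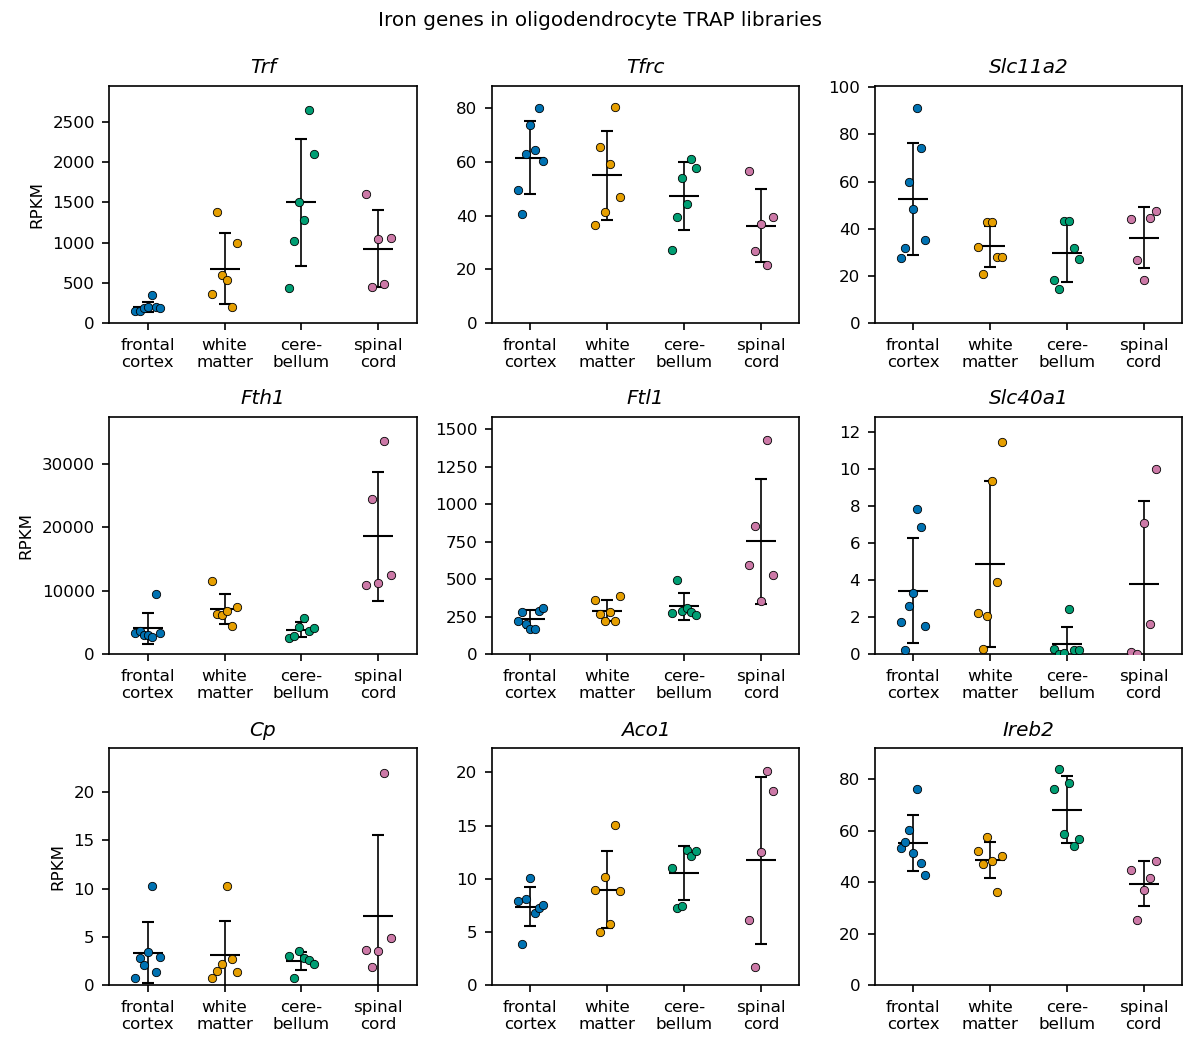
RPKM of the 9 iron genes (vertical axes, linear, each gene on its own scale) in the TRAP libraries of 4 regions. Points are libraries in the order of their replicate numbers, and the bar with whiskers is the mean with 1 SD; Trf is lowest in cortex, while the ferritin genes are highest in spinal cord, where replicates 4 and 7 give the highest Fth1 points.

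Trf, the iron carrier, was the lowest in cortical oligodendrocyte fractions and the highest in cerebellar ones. Its level in cortex was 148 RPKM in the lowest library, 188 at the median and 343 in the highest. In white matter the lowest, median and highest values were 198, 568.4 and 1379.7 RPKM, and in cerebellum 437, 1389.8 and 2654 RPKM. The 5 spinal cord libraries gave 1604, 442, 1048, 481 and 1051 RPKM. Every cerebellar and spinal library was above every cortical one, whereas white matter overlapped cortex through its replicate 7.

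By mean level, Trf ranked cortex, 202 ± 65.4 RPKM (SD, n = 7), white matter, 677 ± 436 (n = 6), spinal cord, 925 ± 480.4 (n = 5), and cerebellum, 1498 ± 786 (n = 6). All fold changes here are on the scale of log2(RPKM + 0.5), with limma's standard error and an adjusted p over all genes tested. Cortex was below white matter by -1.52 ± 0.40 (adjusted p = 0.0224), below spinal cord by -2.07 ± 0.42 (0.000222) and below cerebellum by -2.73 ± 0.40 (5.96e-06). The call against white matter was lost without white matter replicate 3 (-1.26, adjusted p = 0.0876) or replicate 8 (-1.36, 0.0652). The neighbours white matter and spinal cord (-0.55 for white matter, adjusted p = 0.355) and spinal cord and cerebellum (0.66 for cerebellum, 0.282) did not differ beyond their spread. White matter against cerebellum gave -1.21 ± 0.41 with an adjusted p of 0.0611, and passed in 10 of the alternatives, with quantile normalization for one (-1.20, 0.0336).

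Choroid plexus, which also makes transferrin, was checked beside this result with a list of 6 markers. Its summed level was highest in cerebellum, at 74.5 to 346 RPKM, then white matter (16.1 to 94.7), cortex (0.616 to 21.5) and spinal cord (2.93 to 14.7). The defining marker Ttr averaged 183 RPKM in cerebellum and 2.69 in cortex, where it was at 0 in 1 library, and Folr1 was at 0 in all 7 cortical and 5 spinal libraries. In a fit with the choroid plexus marker level as a covariate, the calls of lower Trf in cortex than in white matter, cerebellum and spinal cord were kept. The marker level moves with region, so such a fit separates choroid plexus RNA from region only in part. How much of the Trf message comes from choroid plexus was not tested.

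Measured against myelin RNA, Trf was lower in cortex than in cerebellum, and no other pair of regions passed. Each gene was set against the mean log2 level of the 15 myelin genes in the same library, a list that holds none of the 9. On this scale Trf was 0.10 ± 0.30 higher in cortex than in white matter (adjusted p = 0.742, 95% interval -0.50 to 0.71) and 0.01 ± 0.31 higher than in spinal cord (adjusted p = 0.985, interval -0.63 to 0.64). Against cerebellum it stayed lower in cortex, by -0.82 ± 0.30 (adjusted p = 0.0141). No fit on this scale held the choroid plexus covariate, and cerebellum was the region with the most choroid plexus marker RNA. White matter against cerebellum gave -0.92 ± 0.31 (adjusted p = 0.0904), and cerebellum against spinal cord gave 0.83 ± 0.32 (0.12), or 1.25 (0.00964) with 5 lineage factors in place of the list. Of all genes tested, 0.458% were lower in cortex than in cerebellum on this scale and 80.5% were higher, so most genes moved the other way.

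Relative to myelin, Trf stood between 0.54 and 0.97 log2 units above the myelin mean in 5 of the 6 cerebellar libraries and at -0.09 in replicate 3. It lay between -0.42 and -0.07 in cortex, between -0.61 and -0.14 in white matter, and between -0.62 and 0.04 in spinal cord. The cortical, white matter and spinal ranges thus overlapped, and cerebellum was above them but for replicate 3. Of the 9 genes, 6 (Tfrc, Slc11a2, Ftl1, Cp, Aco1 and Ireb2) were higher in cortex than in white matter on this scale, as were 73.9% of all genes, and 5 (Tfrc, Slc11a2, Slc40a1, Aco1 and Ireb2) were higher than in spinal cord, as were 81.0% of all genes. Against cerebellum the 8 genes other than Trf were higher in cortex, as were 80.5% of all genes.

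**Figure D2:**
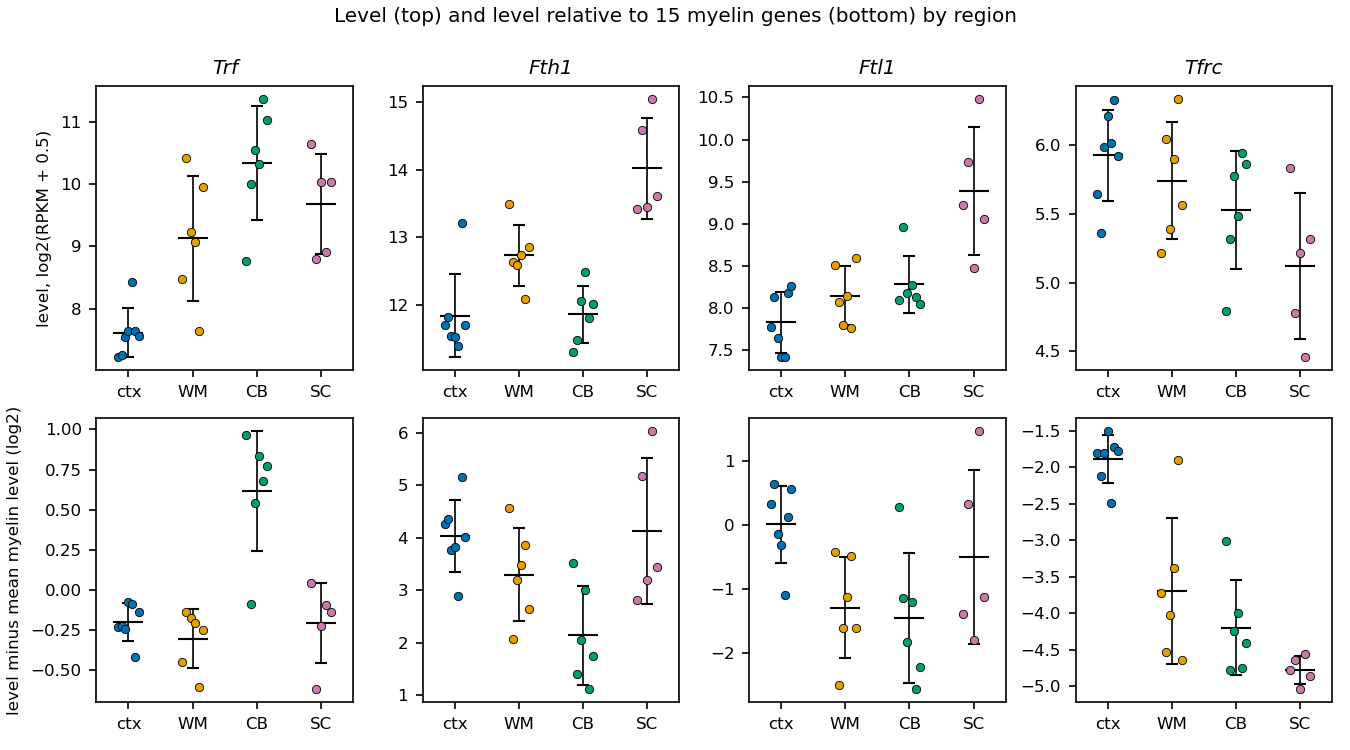
Level of Trf, Fth1, Ftl1 and Tfrc as log2(RPKM + 0.5) (top) and the same level minus the mean log2 level of 15 myelin genes in that library (bottom), in frontal cortex (ctx), white matter (WM), cerebellum (CB) and spinal cord (SC). Points are libraries and bars are means with 1 SD; on the lower axis Trf lies between -0.62 and 0.04 in all but the cerebellar libraries, while Tfrc is higher in cortex than in the other regions but for 1 white matter library.

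The genes most like Trf across the 24 TRAP libraries were Cmtm5 (Pearson r = 0.970), Lamp1 (0.970) and Slc12a2 (0.969). Within regions, with each region's mean removed, the same correlations were 0.923, 0.966 and 0.918. The libraries share their depth and purity, so these values are descriptions only.

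Tfrc, the receptor, was highest by mean in cortex, where Trf was lowest. Its levels in cortex were 40.6, 62.9 and 80.0 RPKM in the lowest, median and highest library, in white matter 36.5, 53.0 and 80.3, and in cerebellum 27.3, 49.2 and 60.9. Those 3 ranges overlapped. The spinal cord libraries held 56.6, 26.9, 36.7, 21.4 and 39.4 RPKM, the last 4 of them below every cortical library. Only cortex against spinal cord passed, at 0.80 ± 0.27 (adjusted p = 0.0184). That call was lost without spinal cord replicate 7 (0.64, adjusted p = 0.0613), with the trend on coding length removed (0.20, 0.587) and with voom on the recovered reads (0.67, 0.0678), and without spinal cord replicates 4 and 7 together (0.47, 0.193).

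The ratio of carrier to receptor message, both per length, was lowest in cortex (2.48 to 5.33), wide in white matter (2.46 to 21.1), and high in cerebellum (16.02 to 43.5) and spinal cord (16.4 to 28.6). No cortical library overlapped cerebellum or spinal cord in this ratio, as was already so for Trf alone. Relative to the myelin genes, Tfrc was higher in cortex than in white matter by 1.81 ± 0.42 (adjusted p = 0.0018), in cerebellum by 2.31 ± 0.42 (3.65e-05) and in spinal cord by 2.89 ± 0.44 (1.64e-06), as were most genes.

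Slc11a2, the endosomal transporter, ranged from 27.6 to 91.0 RPKM in cortex (white matter 20.8 to 42.8, cerebellum 14.6 to 43.3, spinal cord 18.2 to 47.4). All 4 ranges overlapped. Its largest difference, cortex over cerebellum at 0.80 ± 0.32, had an adjusted p of 0.0727. It passed with median-of-ratios scaling (0.86, 0.0304) and with quantile normalization (0.86, 0.0266).

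Both ferritin chains were highest in spinal cord. Fth1 was the most abundant of the 9 genes in each library, with 2701, 3331 and 9477 RPKM in the lowest, median and highest cortical library. White matter gave 4388, 6610.2 and 11498 RPKM, and cerebellum 2552, 3866 and 5747. The spinal cord libraries gave 10963, 24472, 11175, 33699.7 and 12545 RPKM, and the values of 24472 and 33699.7 belonged to replicates 4 and 7, the libraries that stood apart. Every spinal library was above every cortical and cerebellar one, and white matter reached into the spinal range through replicate 2.

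Set against spinal cord, Fth1 differed by -2.17 ± 0.31 in cortex (adjusted p = 2.25e-06), by -2.16 ± 0.32 in cerebellum (2.28e-05) and by -1.28 ± 0.32 in white matter (0.00315). Without spinal cord replicates 4 and 7 the differences were -1.65 (adjusted p = 0.000188), -1.63 (0.00103) and -0.76 (0.0846), so the call against white matter was lost, as it was with quantile normalization (-0.74, 0.0945). By mean, cerebellum (3867 ± 1146 RPKM) and cortex (4065 ± 2406) differed by less than their spread (-0.02 for cortex, adjusted p = 0.975, interval -0.61 to 0.58). White matter (7118 ± 2375 RPKM) against cortex gave -0.89 ± 0.29 for cortex with an adjusted p of 0.0696. Cortex replicate 7, at 9477 RPKM, was the only cortical library above 3645, and without it the difference was -1.12 and passed, with an adjusted p of 0.0121.

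Ftl1 had 169.9, 219 and 306 RPKM in the lowest, median and highest cortical library, 217, 276 and 385 in white matter, and 264, 284 and 497 in cerebellum. The spinal cord libraries gave 595, 854, 354, 1429.9 and 531 RPKM, of which replicates 4 and 7 again gave the highest. Replicate 5, at 354 RPKM, fell within the ranges of white matter and cerebellum. Set against spinal cord, Ftl1 differed by -1.56 ± 0.27 in cortex (adjusted p = 3.53e-05), by -1.25 ± 0.28 in white matter (0.00132) and by -1.11 ± 0.28 in cerebellum (0.00447). Without replicates 4 and 7 these were -1.08 (adjusted p = 0.00152), -0.77 (0.0337) and -0.63 (0.0898), and the last call was lost, as it was with the choroid plexus covariate (-1.16, 0.151).

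The ratio of heavy to light chain message, Fth1 to Ftl1, was lowest in cerebellum (5.80 to 18.6), and reached 10.9 to 32.9 in cortex, 19.2 to 31.6 in white matter and 18.4 to 31.6 in spinal cord. Across the 24 libraries their log2 levels correlated with r = 0.81, and with r = 0.63 within regions. Both genes have processed copies elsewhere in the mouse genome, and how reads that match several places were counted is not given in the sources used here, so their absolute levels are uncertain.

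The genes most like Fth1 were the ribosomal protein genes Rpl21 (r = 0.922), Rpsa (0.921) and Rpl13a (0.920), and those most like Ftl1 were Aes (0.939), Morf4l1 (0.913) and Rpl17 (0.911). The coding lengths of the ferritin genes are short, 546 bases for Fth1 and 549 for Ftl1, and with the trend on coding length removed from each library the differences between cortex and spinal cord were -1.97 (adjusted p = 1.51e-06) for Fth1 and -1.36 (0.000167) for Ftl1. Relative to the myelin genes, Fth1 gave -0.09 for cortex against spinal cord (adjusted p = 0.867, interval -1.12 to 0.93) and -0.83 for white matter (0.266). Cerebellum against spinal cord gave -1.99 ± 0.52 (0.0227), where 1.44% of all genes were lower in cerebellum on this scale. Spinal cord replicates 4 and 7 stood at 5.17 and 6.03, and replicates 3, 5 and 8 at 2.81 to 3.44. Cerebellum, at 1.11 to 3.51, overlapped the spinal range, and no fit on this scale left replicates 4 and 7 out. Ftl1 passed against spinal cord in no region (adjusted p = 0.346 in cortex, 0.302 in white matter, 0.293 in cerebellum).

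Microglia, which also hold ferritin, were checked with 10 markers, whose sum was 23.9 to 134 RPKM in spinal cord and 21.0 to 40.3 in cerebellum. In the spinal cord libraries the sum was 53.5, 134, 23.9, 119 and 123 RPKM, so replicates 4 and 7 were not alone in being high. Cortex, at 61.8 to 78.0 RPKM, lay within the spinal range. The part of microglial RNA in the ferritin differences was not tested.

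The export genes were near the lower end of what these libraries measure. Slc40a1 had 0.237 to 7.86 RPKM in cortex (10 to 78 reads), 0.284 to 11.5 in white matter (8 to 230 reads), 0 to 2.44 in cerebellum (0 to 123 reads) and 0 to 10 in spinal cord (0 to 177 reads). In cerebellum 5 of the 6 libraries were at or below 0.286 RPKM and replicate 6 was at 2.44. Cortex over cerebellum was 1.87 ± 0.72 (adjusted p = 0.0569) and white matter over cerebellum 2.18 ± 0.74 (0.0637). Without cerebellum replicate 6 both passed (2.23, adjusted p = 0.0281, and 2.55, 0.0324).

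Cp reached 22.0 RPKM in spinal cord (from 1.90), 10.3 in cortex (from 0.676), 10.2 in white matter (from 0.725) and 3.53 in cerebellum (from 0.747). In cortex and white matter the highest value was that of replicate 6, and in spinal cord that of replicate 7. Cortex replicate 6 and spinal cord replicate 7 also held the most endothelial marker RNA of their groups, 213 and 226 RPKM against 6.40 to 37.6 and 5.13 to 44.1 in the others. White matter replicate 6, with Cp at 10.2 RPKM, held 153 RPKM of these markers, against 166 in replicate 7, where Cp was 2.73. The part of endothelial RNA in these values was not tested. No contrast of Cp passed, but with quantile normalization cortex (-1.63, adjusted p = 0.0129) and white matter (-1.66, 0.0233) were below spinal cord, as they were with the length trend removed (-1.49, 0.027, and -1.53, 0.0403).

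Of the 2 regulators, Ireb2 was the more abundant per length in every TRAP library. The median ratio of Ireb2 to Aco1 was 6.73 in cortex, 6.56 in cerebellum, 5.73 in white matter and 2.96 in spinal cord, where single libraries ran from 2.07 to 15.2. Ireb2 ranked spinal cord, 39.4 ± 8.88 RPKM (n = 5), white matter, 48.6 ± 7.08 (n = 6), cortex, 55.3 ± 10.8 (n = 7), and cerebellum, 68.1 ± 13 (n = 6).

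The cerebellar libraries, at 54.1 to 84.1 RPKM, all lay above the spinal ones, at 25.4 to 48.4. That difference was 0.79 ± 0.23 (adjusted p = 0.0134), and no other pair of regions passed for Ireb2. Cortex over spinal cord was 0.49 ± 0.22 (adjusted p = 0.0727), and passed with no filter (0.49, 0.0405) and with quantile normalization (0.59, 0.031). The call between cerebellum and spinal cord was lost with median-of-ratios scaling (0.57, adjusted p = 0.0753), with the length trend removed (0.39, 0.242), with the choroid plexus covariate (0.65, 0.347), in a fit of these groups alone (0.79, 0.0695) and without spinal cord replicates 4 and 7 (0.63, 0.06). Aco1 spread widest in spinal cord, from 1.67 to 20.1 RPKM (cortex 3.88 to 10.04, white matter 5.0 to 15.1, cerebellum 7.28 to 12.7), and none of its contrasts passed.

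The receptor, transporter, export and regulator genes had weaker likenesses across the 24 libraries than Trf and the ferritin genes. The gene most like each was Adarb2 for Tfrc (r = 0.790), Sfi1 for Slc11a2 (0.834), Rai14 for Slc40a1 (0.825), Gatsl3 for Cp (0.784), Letm1 for Aco1 (0.819) and Strn3 for Ireb2 (0.828).

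By pair of regions, the calls among the 9 genes were 1 for cortex against white matter (5.39% of all genes tested). Cortex against cerebellum gave 1 (24.6%) and cortex against spinal cord 4 (43.7%). There were 0 for white matter against cerebellum (9.76%), 2 for white matter against spinal cord (27.7%) and 3 for cerebellum against spinal cord (22.6%). At an unadjusted p under 0.05, white matter against cerebellum gave 4 of the 9, beside 2789 of 13982 genes. White matter against cerebellum gave 3 calls with voom on the recovered reads, on Trf, Fth1 and Slc40a1. Groups did not overlap for 1 gene between cortex and cerebellum (13.4% of all genes), 3 between cortex and spinal cord (18.4%) and 2 between cerebellum and spinal cord (10.2%), and for 0 between white matter and cortex (3.75%), cerebellum (6.05%) or spinal cord (9.88%). The median log2 fold change of the 9 between cortex and spinal cord was -0.30, beside 0.33 for all genes, and the median of all genes was 0.19 with median-of-ratios scaling and -0.02 with quantile normalization. Under these Fth1 differed by -2.34 (adjusted p = 5.5e-07) and -1.25 (0.00199), and Ftl1 by -1.73 (1.71e-05) and -1.07 (0.00103). Of all genes called there, 3847 were higher and 2268 lower in cortex, against 2892 and 2780 with quantile normalization and 2441 and 3074 with the length trend removed. These pairs share their libraries, and the calls are not independent of one another.

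Beyond the 9, a list of 64 further iron genes had 52 tested in the TRAP table, and 24 of them passed the F test beside the background of 47.1%. Between cortex and spinal cord 10 were higher and 9 lower in cortex, beside 27.5% and 16.2% of all genes. These calls were not retested without the spinal cord libraries that stood apart, or with the length trend removed. The lower ones included Bola2 (-3.57 ± 0.43, adjusted p = 2.02e-07) and Glrx3 (-2.32 ± 0.34, 3.61e-06), cytosolic iron-sulphur carriers, and Glrx5 (-2.02 ± 0.42, 0.00034), their mitochondrial counterpart. The higher ones included Slc25a37, the mitochondrial iron importer mitoferrin-1 (2.04 ± 0.41, 0.000211), the cytochrome Cyb561 (3.43 ± 0.55, 1.31e-05) and Tfr2, the second transferrin receptor (2.40 ± 0.56, 0.00108), which reached 2.74 RPKM in cortex and 0.0493 in spinal cord.

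Cerebellum differed from white matter in 4 of these 52 genes, beside 9.76% of all genes. Steap2, a ferrireductase, was 91.8 RPKM in cerebellum and 9.53 in white matter (-3.29 ± 0.42 for white matter, adjusted p = 1.3e-06), and Alad, an enzyme of heme synthesis, was 26.7 and 6.43 (-2.14 ± 0.46, 0.00192). Cybrd1, the duodenal cytochrome b, was 10.2 RPKM in white matter and 1.62 in cerebellum (2.14 ± 0.62, 0.023), and Epas1, a hypoxia factor whose message is reported to carry an IRE, was 107 and 36.8 (1.55 ± 0.36, 0.00368). Endothelial markers summed to 12.3 to 166 RPKM in white matter and 2.35 to 12.6 in cerebellum. Of these 6 markers, 4 were called higher in white matter. The part of endothelial RNA in the values of Cybrd1 and Epas1 was not tested. Ncoa4, which delivers ferritin for degradation, was 17.5 RPKM in cerebellum and 4.52 in spinal cord (1.88 ± 0.33, 0.000189). The call on Ncoa4 was not retested without the spinal cord libraries that stood apart, or with the length trend removed.

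In the tauopathy model the ferritin light chain rose, and it was the one call among the 9 genes, beside 7.42% of all 13972 genes tested. Ftl1 was 296, 285 and 304 RPKM in the transgene-negative libraries and 519, 509 and 458 RPKM in the positive ones. All 3 positive libraries were above all 3 negative ones, the nearest being at 304 and 458. The difference was 0.75 ± 0.08, a 1.68-fold rise (adjusted p = 0.0028, 95% interval 0.56 to 0.93). It stayed between 0.71 and 0.80 with each library left out in turn, and with the trend on coding length removed it was 0.55 (adjusted p = 0.0144).

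The heavy chain did not pass. Fth1 was 1281, 1054 and 1667 RPKM in negative and 1577, 1384 and 1492 RPKM in positive libraries, with the groups overlapping (0.18 ± 0.16, adjusted p = 0.508, interval -0.19 to 0.54). The ratio of Fth1 to Ftl1 was 3.69 to 5.49 in negative and 2.72 to 3.26 in positive libraries, with no overlap, as was already so for Ftl1 alone.

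Trf was 106, 105 and 166 RPKM in negative and 169, 180.1 and 164 in positive libraries. The third negative library lay among the positive ones, and the difference of 0.47 ± 0.17 did not pass (adjusted p = 0.131). Without that library it was 0.69 and passed, with an adjusted p of 0.0157. The same library had the highest myelin sum of the table, 6991 RPKM against 4536 to 6141 in the other 5, and Trf per Mbp was 0.0563 to 0.0611 in negative and 0.0677 to 0.0836 in positive libraries. Choroid plexus markers summed to 2162, 28.8 and 473 RPKM in the negative libraries and to 16.3 to 32.1 in the positive ones. The part of choroid plexus RNA in the Trf values was not tested.

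Slc40a1 gave 5.19, 5.98 and 4.05 RPKM in negative and 6.32, 7.39 and 7.21 in positive libraries, with no overlap (0.44 ± 0.16, adjusted p = 0.139). Ireb2 gave 31.7, 31.1 and 30.9 RPKM and then 20.9, 29.3 and 29.3, also without overlap (-0.25 ± 0.14, adjusted p = 0.284). With Ftl1 these make 3 of the 9 genes whose groups did not overlap, beside 31.6% of all genes. Tfrc (0.10 ± 0.12, adjusted p = 0.646), Slc11a2 (0.14 ± 0.12, 0.471), Aco1 (0.13 ± 0.12, 0.524) and Cp (0.50 ± 0.28, 0.295) overlapped between the groups. The median over the 9 was 0.18, beside 0.09 for all genes. Of all genes called, 806 were higher and 231 lower, against 535 and 398 with median-of-ratios scaling, where Ftl1 differed by 0.65 (adjusted p = 0.00658), and 433 and 325 with quantile normalization, where it differed by 0.73 (0.0036).

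**Figure D3:**
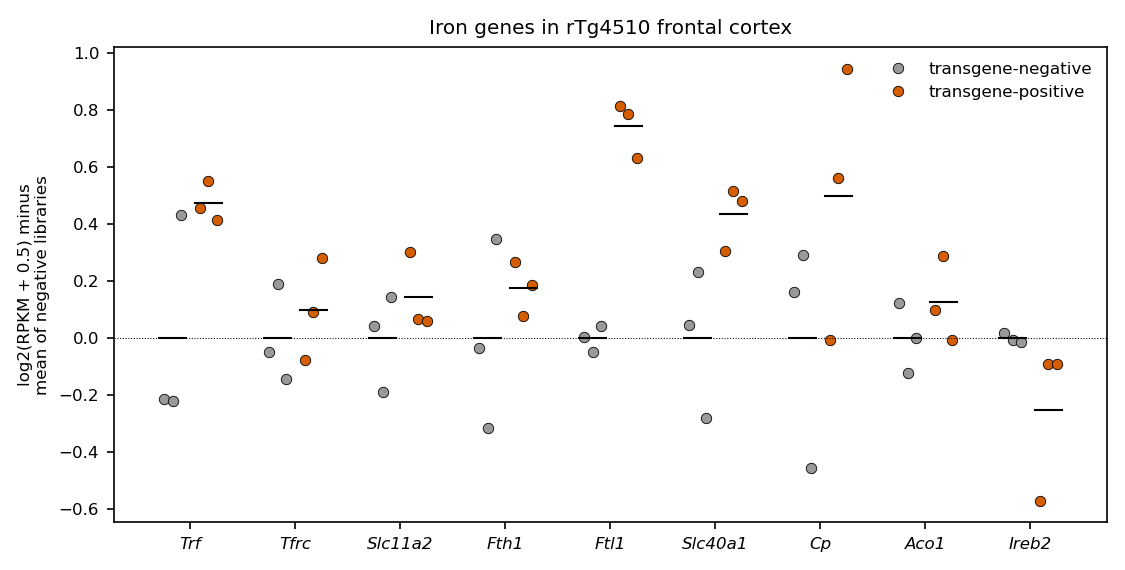
Log2(RPKM + 0.5) of the 9 iron genes in rTg4510 frontal cortex, minus the mean of the 3 transgene-negative libraries. Points are libraries (grey negative, orange positive) and short lines are group means; the 3 positive libraries of Ftl1 lie above its negative ones with a mean difference of 0.75, while the third negative library of Trf lies with the positive ones.

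Microglial markers moved with Ftl1. Of 10 markers, 7 rose and 0 fell, and their sum was 327 to 370 RPKM in negative and 752 to 964 in positive libraries; C1qa rose by 1.92 ± 0.12 (adjusted p = 0.000406), C1qb by 2.01 ± 0.15 (0.000647) and Tyrobp by 1.86 ± 0.10 (0.000154). Of 8 astrocyte markers, 3 rose, Gfap by 2.67 ± 0.20 (0.000886). The choroid plexus markers summed to 2162, 28.8 and 473 RPKM in the negative libraries and 16.3 to 32.1 in the positive ones, and Ftl1 in the negative library with the lowest sum was 285 RPKM. The part of any of these cell types in the ferritin difference was not tested.

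Among the 64 further iron genes, 51 were tested, of which 6 rose and 0 fell, beside 5.77% and 1.65% of all genes. Hmox1, the inducible heme oxygenase that frees iron from heme, rose by 1.32 ± 0.17 (adjusted p = 0.00465), from 5.11 to 13.4 RPKM. Blvrb, biliverdin reductase B, rose by 0.69 ± 0.10 (0.00744). Cybrd1 rose by 1.22 ± 0.24 (0.0262) and Steap3, a ferrireductase of the endosome, by 0.79 ± 0.13 (0.0146). Hfe, a partner of the transferrin receptor, rose by 1.11 ± 0.21 (0.0219). The sixth, Lcn2, an iron-siderophore carrier named here after its values were seen, reached a mean of 1.19 RPKM (1.24 ± 0.30, adjusted p = 0.0496).

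In the miR-142 table none of the 9 genes passed between any of the genotypes. Between null and wild type 65 of 13879 genes did (0.468%). At an unadjusted p under 0.05 there were 3 of the 9, beside 3134 of 13879 genes. Between heterozygous and wild type no gene passed (0 of 13879, with 1008 at an unadjusted p under 0.05), nor between null and heterozygous (0, with 456). With voom on the recovered reads the counts were 78, 0 and 0. Groups did not overlap for 0 of the 9 genes between heterozygous and wild type (2.70% of all genes) or between null and heterozygous (2.44%).

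Trf came nearest. It was 44.7, 37.6, 37.0 and 39.4 RPKM in wild-type libraries, 49.8, 56.2, 54.2 and 35.4 in heterozygous and 55.3, 60.5, 59.4 and 45.5 in null libraries. All null libraries were above all wild-type ones, and the heterozygous libraries spanned both. Null was above wild type by 0.47 ± 0.13 (adjusted p = 0.0749, interval 0.18 to 0.75), and in a fit of those genotypes alone the adjusted p was 0.0438. Heterozygous against wild type gave 0.28 ± 0.13 for Trf (adjusted p = 0.678) and -0.18 ± 0.08 for Fth1 (0.674).

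Fth1 was the other gene whose null and wild-type libraries did not overlap. It was 1012, 1089, 1012 and 988 RPKM in wild-type, 875, 851, 828 and 1091 in heterozygous and 815, 909, 869 and 906 in null libraries. All null libraries were below all wild-type ones (-0.23 ± 0.08, adjusted p = 0.106, interval -0.39 to -0.07). Trf and Fth1 were thus 2 of the 9 genes without overlap between null and wild type, beside 13.1% of all genes.

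Tfrc had 106, 84.3, 71.4 and 66.6 RPKM in wild-type and 95.5, 87.1, 101 and 96.6 in null libraries (0.23 ± 0.12, adjusted p = 0.278). Without wild-type replicate 1, which held the highest value, the difference was 0.36 with an adjusted p of 0.0488. Slc40a1 had 8.73, 7.10, 6.72 and 6.996 RPKM in wild-type and 5.13, 7.21, 6.23 and 5.56 in null libraries, with null replicate 2 inside the wild-type range (-0.28 ± 0.11, adjusted p = 0.17). Ftl1 (-0.04 ± 0.07, adjusted p = 0.753), Ireb2 (0.05 ± 0.08, 0.754), Aco1 (0.07 ± 0.07, 0.598), Slc11a2 (-0.03 ± 0.08, 0.859) and Cp (-0.06 ± 0.23, 0.894) differed by less than their spread. For Ftl1 the 95% interval was -0.20 to 0.11, and for Aco1 -0.09 to 0.23.

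The libraries' titles carry a letter and a number whose meaning the labels do not give, and the number was uneven between the genotypes. It was 14 in all 4 null and in 3 heterozygous libraries, and 13 or 15 in the 4 wild-type libraries and in heterozygous replicate 4. Trf was 45.5 to 60.5 RPKM in the 7 libraries with 14 and 35.4 to 44.7 in the other 5. Fth1 was 815 to 909 RPKM in the 7 and 988 to 1091 in the other 5. Neither gene overlapped in this split, as was so for 6.56% of all genes, and in it heterozygous replicate 4 lay with the wild-type libraries. The number and the null genotype cannot be told apart. With the number as a term in the fit Trf differed by -0.12 and Fth1 by 0.13 between null and wild type. As every null and no wild-type library carries 14, that term rests on heterozygous replicate 4 against the other heterozygous libraries. Such a fit cannot separate the number from the genotype.

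**Figure D4:**
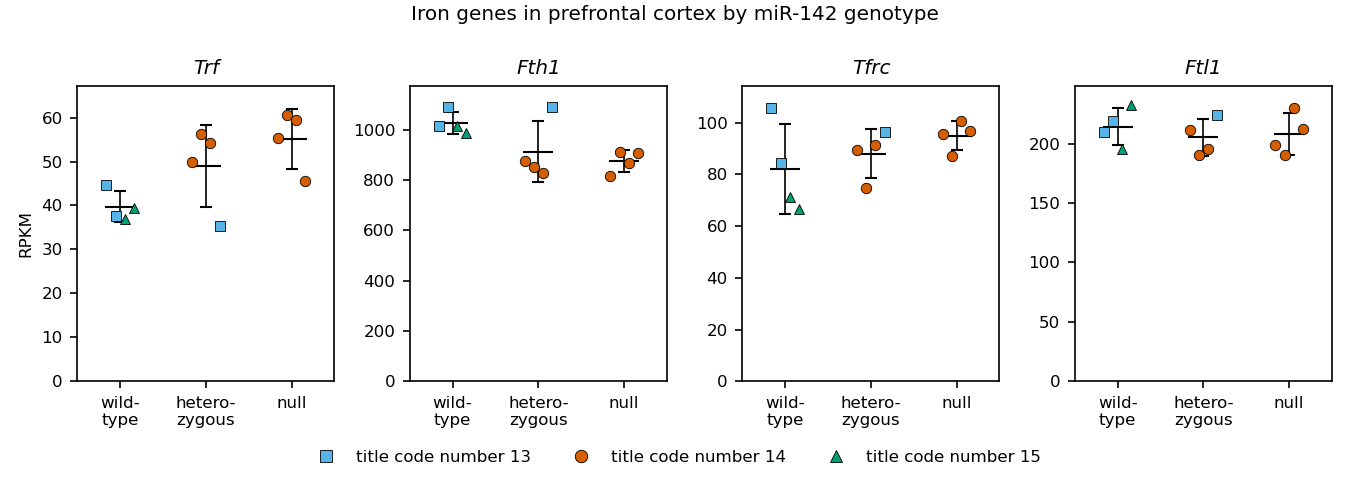
RPKM of Trf, Fth1, Tfrc and Ftl1 (vertical axes from 0) in prefrontal cortex by miR-142 genotype, with the number in the library title as the marker. Points are libraries and bars are means with 1 SD; the 7 libraries numbered 14 hold Trf at 45.5 to 60.5 and Fth1 at 815 to 909, and heterozygous replicate 4, numbered 13, lies with the wild-type libraries.

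Markers of other cells were set beside these values. The myelin sum was 1351 to 1929.7 RPKM in wild-type and 1553 to 2362 in null libraries, and 0 of its 15 genes passed. The endothelial sum was 169.97 to 199 RPKM in wild-type and 131 to 143 in null libraries, and 1 of its 6 genes fell. Of 53 further iron genes tested, 2 fell in null against wild type and 0 rose, beside 0.259% and 0.209% of all genes. Hmox1 was 5.55 RPKM in wild-type and 3.61 in null libraries (-0.55 ± 0.11, adjusted p = 0.0493), and Epas1 was 27.4 and 19.5 (-0.48 ± 0.07, 0.0493). Both calls were lost, as no gene was called at all, with a pseudocount of 1, median-of-ratios scaling, the length trend removed or the title number as a term, and without any one of wild-type replicates 3 and 4 and null replicates 1 and 3. They were also lost with no filter and without null replicate 4, where no gene was called lower. Without wild-type replicate 2 only 1 gene was called. What these markers contribute to the values of Trf and Fth1 was not tested.

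The 3 tables were normalized separately, and levels across them were not tested. Side by side, Fth1 was 2552 to 33699.7 RPKM in the oligodendrocyte fractions, 1054 to 1667 in rTg4510 cortex and 815 to 1091 in miR-142 prefrontal cortex. Trf was 148 to 2654, 105 to 180.1 and 35.4 to 60.5 RPKM in the same order. Tfrc, at 21.4 to 80.3, 41.8 to 56.3 and 66.6 to 106 RPKM, did not follow them. Fth1 was the highest of the 9 genes by mean in each of the 9 groups. Slc40a1 or Cp was the lowest.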

How the data were processed

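Per the labels, TRAP libraries were made with NuGEN amplification and RiboZero and read as 50 bp pairs, and cortex libraries with TruSeq Stranded and RiboZero Gold as 75 bp pairs. Per the submitters' processing notes, STAR, HTSeq and mm10 were used, and versions and the treatment of reads matching several places are not given in the sources used here. The authors deposited RPKM values in 3 tables, and no count table was used. Steps between the values of a gene gave whole reads within 0.005 for all 18782 genes above 0, and the depths. In each library 49.1 to 50.7% of the recovered counts above 20 were divisible by 2 and 32.4 to 34.3% by 3, so they share no such factor. Of the lengths, 93.0% were multiples of 3, so they are coding lengths.

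Tests used limma 3.58.1 in R 4.3.3 (trend, robust) on log2(RPKM + 0.5), two-sided, for genes that reached 0.5 RPKM in 5 libraries (TRAP), 3 (rTg4510) or 4 (miR-142), with Benjamini-Hochberg adjustment over all genes and a threshold of 0.05. All groups of a table shared 1 fit. Errors after ± are standard errors for log2 differences and SDs for RPKM. The steps were tested on simulated data. Other steps used Python 3.11.15 with pandas 2.3.3. Titles repeat numbers across TRAP regions, which were not used as pairs. The further iron genes named were, in each comparison, among the up to 6 with the largest change that passed and reached a mean of 2 RPKM, except Lcn2, named after its values were seen. The 9 genes, the lists and the comparisons were chosen with earlier results of these data known. The alternatives with the length trend and the title number were chosen after seeing the data. Libraries in a group differed beyond sampling noise.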

Additional observations from a re-analysis of the deposited data

Results flagged for a closer look

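Of 63 sets of values of 1 iron gene in 1 group of 4 to 7 libraries, 8 held a library far from the others, by Dixon's test at the 95% level. Chance gives this in about 1 of 20 sets if values spread normally and sets are independent. The test was run on RPKM and not on log2 values, and the sets share libraries, so that rate need not hold here. All 8 flagged values were the highest of their set. TRAP cortex held 3 of them: Trf at 343 RPKM in replicate 6, with the others at 148 to 199; Cp at 10.3 in the same replicate, with the others at 0.676 to 3.46; and Fth1 at 9477 in replicate 7, with the others at 2701 to 3645. In white matter Cp was 10.2 RPKM in replicate 6, and 0.725 to 2.73 in the others. In cerebellum Ftl1 was 497 RPKM in replicate 3, against 264 to 309, and Slc40a1 was 2.44 in replicate 6, against 0 to 0.286. In spinal cord Cp was 22.0 RPKM in replicate 7, against 1.90 to 4.90. In the miR-142 table Slc11a2 was 31.0 RPKM in heterozygous replicate 4, the heterozygous library with the number 13 in its title, against 26.4 to 26.8 in the others.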

How the results depend on the processing

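For the values as deposited, 99 results were recomputed in 2159 alternatives: 2072 kept direction and side of the threshold, 26 lost a call, 61 gained one and 0 reversed; 100 values that were not called changed sign, which is no direction. Relative to the myelin genes, 54 results in 108 alternatives gave 100, 1, 7 and 0. Most calls that changed stand with their gene, and the cause was not tested. Further calls were gained on Slc40a1 in 6 alternatives between cortex and cerebellum and 7 between white matter and cerebellum, on Fth1 in 5 for each of cortex and cerebellum against white matter, on Slc11a2 in 4 between cortex and cerebellum, and on Tfrc in 1 between white matter and spinal cord (0.80, adjusted p = 0.0407, without spinal cord replicate 3). Relative to myelin, Aco1 between cortex and white matter was lost with the 5 lineage factors (1.27, 0.0576).

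Counts of genes called moved more. For cortex against white matter (754) they were 1158 with quantile normalization, 1436 with the choroid plexus covariate, 1355 without spinal cord replicates 4 and 7, 1404 with only these groups in the model, and 296 (without white matter replicate 3) to 1028 with 1 library left out. White matter against spinal cord (3869) gave 2484 with the covariate and 2200 with only these groups, and cerebellum against spinal cord (3162) gave 604 and 2033. Relative to myelin, 5 lineage factors in place of the list gave 5450 for white matter against spinal cord (2357) and 2742 for cerebellum against spinal cord (826). The rTg4510 count (1037) was 264 (without positive replicate 3) to 2323 (without positive replicate 1), and 265, 326 and 358 without positive replicate 2, negative replicate 1 and negative replicate 3. The null against wild-type count (65) was 0 with a pseudocount of 1, 2 with no filter, 0 with median-of-ratios scaling, 0 with the length trend removed, 0 with the title number and 41 with the title letter as a term, 219 with only these genotypes, and 0 to 662 with 1 library left out (662 without wild-type replicate 1). Heterozygous against wild type (0) gave 0 to 4.

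The numbers of the TRAP libraries did not meet the rule for pairs, a correlation over 0.1 in every pair. In 31 same-numbered pairs r was -0.236 to 0.272 (median 0.060), against a median of -0.022 in 184 others. It was over 0.1 in 13 of the 31 and in 24 of the 184. Of 24 libraries, 7 correlated best with their own number. Failing this strict rule does not show that same-numbered libraries come from different animals. With the replicate block the cortex against white matter count was 813, and cerebellum against spinal cord relative to myelin gave 397. Slc40a1 passed the F test (adjusted p = 0.00823), as it did between cortex and cerebellum (2.07, 0.00787), white matter and cerebellum (2.18, 0.012) and cerebellum and spinal cord (-1.92, 0.0355), Trf passed between white matter and cerebellum (-1.21, 0.0382), and Ireb2 did not between cerebellum and spinal cord (0.67, 0.0621). In the TRAP libraries Slc40a1 rests on 0 to 230 reads, Cp on 29 to 431 and Aco1 on 38 to 1080.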
